A study of Rattus norvegicus with 30 samples.

Results

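The flavin-containing monooxygenase genes *Fmo1*, *Fmo2*, *Fmo4* and *Fmo5* were followed in rat liver across 6 diets. Every probe set annotated to 1 of these 4 genes was taken, which gave 7 of the 31042 probe sets left after removal of control probe sets. The genes were chosen by their log2 intensity across the 6 diets in these same 30 livers, so their differences between diets are given as a description with no test. *Fmo1* and *Fmo5* have 1 probe set each, *Fmo4* has 2 and *Fmo2* has 3, which are numbered below in falling order of their mean over all livers.

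The livers came from male Sprague-Dawley rats that were bought at 4 weeks of age, adapted for 5 days on a commercial diet and then fed a test diet for 14 days, 5 animals per diet. T20 supplied 200 g/kg of protein from freeze-dried tofu, and T10 supplied 100 g/kg from tofu with 100 g/kg from casein. In SI the protein was soy protein with an added isoflavone mixture, and in S it was soy protein alone. CI was a casein diet with the isoflavone mixture, and C was the casein diet alone; the mixture in SI and CI was set to the isoflavone content of T20. All diets held 200 g/kg of protein, none carried a genetic change, and each liver was hybridised to 1 Affymetrix array of 1 colour. The array medians lay between 216.9 and 254.7 intensity units, and the 5 arrays per diet limit the precision. The labels call the arrays of a diet biological replicates. The summed intensity of 7 hepatocyte markers lay between 309988 and 435850 units in all 30 livers. In bulk liver, fewer cells of a type and less RNA per cell cannot be told apart.

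Flavin-containing monooxygenases are enzymes of the endoplasmic reticulum that hold a flavin cofactor, take electrons from NADPH and add an oxygen atom to nitrogen or sulfur in drugs, dietary amines and thioethers. FMO1 is a main hepatic form in rats, and in human and mouse preparations it has also been reported to oxidise hypotaurine to taurine. FMO2 is best known from lung. FMO4 is a little studied form of low abundance, and FMO5 oxidises ketones to esters and accepts few of the classical substrates.

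In the RefSeq annotation of GRCr8, *Fmo4*, *Fmo1* and *Fmo2* are neighbouring coding genes on chromosome 13, while *Fmo5* lies on chromosome 2 between *Chd1l* and *Prkab2*. The start regions of *Fmo1*, the member with the largest diet difference, and of *Fmo5*, the member with the widest spread between livers, are printed because their RNA patterns differed most. Each holds 250 bases before and 50 after the start, as RefSeq gives it for GRCr8, at chr13:77747617-77747916 on the minus strand for *Fmo1* and chr2:187910714-187911013 on the plus strand for *Fmo5*. Capitals mark a match to 1 of 5 short motifs, searched on both strands. The nuclear receptor half-site was searched as AGGTCA. For the core bound by the dioxin receptor the letters were GCGTG. An E-box was taken as CACGTG, the site bound by clock factors and other helix-loop-helix proteins. The half-site of hepatocyte nuclear factor 1 was searched as GTTAAT. The TATA box was searched as TATAAA, and no motif match overlapped another in these windows.
Fmo1: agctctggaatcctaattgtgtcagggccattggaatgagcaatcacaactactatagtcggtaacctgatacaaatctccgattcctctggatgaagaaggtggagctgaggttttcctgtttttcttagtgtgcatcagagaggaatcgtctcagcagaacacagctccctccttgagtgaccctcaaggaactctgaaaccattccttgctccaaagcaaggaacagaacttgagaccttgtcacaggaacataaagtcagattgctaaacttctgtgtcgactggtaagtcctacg
Fmo5: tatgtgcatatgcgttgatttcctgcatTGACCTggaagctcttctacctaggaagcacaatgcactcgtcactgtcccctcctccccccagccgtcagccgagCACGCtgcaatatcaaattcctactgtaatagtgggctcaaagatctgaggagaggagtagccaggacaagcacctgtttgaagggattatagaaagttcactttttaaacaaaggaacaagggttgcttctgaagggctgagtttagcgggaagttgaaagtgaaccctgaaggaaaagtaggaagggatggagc
The *Fmo5* window held 1 AGGTCA match starting 222 bases before the start and 1 GCGTG match starting 146 bases before it, both on the opposite strand. These letters were present in 16.2% and 29.7% of the 33469 promoter windows of the table. The *Fmo1* window held none of the 5 motifs, and the E-box, the hepatocyte nuclear factor 1 half-site and the TATA box, which are in 6.42%, 7.45% and 14.2% of windows, were in neither window. GC content was 45.7% in the *Fmo1* window and 48.0% in the *Fmo5* window. A match of letters is a description and does not show binding.

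*Fmo1* RNA was high on every diet that contained soy protein or tofu and low on both diets whose protein was casein alone. In T20 livers, *Fmo1* read 6823.7, 5416.9, 4977.3, 8275.3 and 7778.8 intensity units. In T10 livers it read 4382.5, 6160.2, 6052.1, 9172.2 and 7847.9 units. The readings of the 2 tofu diets overlapped over most of their range. SI livers gave 6285.9, 5560.1, 5945.7, 8200.6 and 6854.6 units for *Fmo1*. S livers gave 5763.2, 6984.4, 7746.1, 6621.9 and 5794.2 units. The soy protein livers lay within the range of the tofu livers. CI livers had *Fmo1* readings of 1357.9, 1189.7, 1625.7, 2318.1 and 2091.7 units. C livers had 1502.8, 1487.6, 1654.3, 1474.1 and 1817.4 units. The CI livers spread to both sides of the C livers, and no liver of either diet came near the lowest soy or tofu liver.

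**Figure D1:**
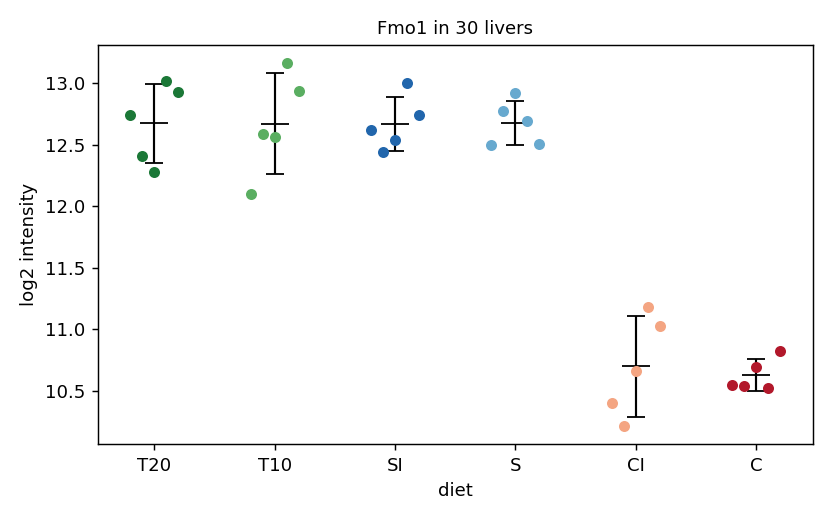
*Fmo1* log2 intensity (vertical axis) in each of 30 livers, by diet (horizontal axis); points are livers, the bar is the diet mean and the whiskers are 1 SD. The means of T20, T10, SI and S lie at 12.67, 12.67, 12.67 and 12.68, above CI at 10.70 and C at 10.63, with no liver in the gap between.

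The 20 soy and tofu livers ran between 4382.5 and 9172.2 units with a median of 6453.9. The 10 casein-only livers ran between 1189.7 and 2318.1 units with a median of 1564.25, so the ratio of the medians was 4.13. Complete separation of this kind, with every soy and tofu liver above every casein-only liver, was found for 6 of 18625 tested probe sets (0.0322%), and the opposite separation for 13 (0.0698%). The gap of *Fmo1*, between a T10 liver and a CI liver, was 0.92 on the log2 scale and exceeded that of the other 18 probe sets, of which a *Pnpla3* probe set came next with 0.88 in the opposite direction. *Pnpla3* encodes a lipid droplet protein. Other probe sets with every soy and tofu liver above the casein-only livers included those of *Slc1a2*, a glutamate transporter, with a gap of 0.42, and *Ces1d*, a carboxylesterase, with a gap of 0.21. Since *Fmo1* was chosen by this pattern, its place in this ranking is a description.

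As log2 differences ± SE with 5 livers per diet, *Fmo1* differed from C by 2.04 ± 0.18 in T20 (4.13-fold), 2.04 ± 0.18 in T10 (4.12-fold) and 2.05 ± 0.18 in S (4.13-fold). These comparisons share the 5 C livers. SI exceeded CI, which uses other animals, by 1.97 ± 0.18 (3.91-fold). Every T20, T10 and S liver lay above every C liver, and every SI liver above every CI liver. Over all tested probe sets, 1.97% lay wholly above for T20 against C, 0.784% for T10 against C, 3.17% for S against C and 4.70% for SI against CI. Ranked by size among all 18625 differences, *Fmo1* was number 15 for T20, 9 for T10 and 18 for S against C, and 26 for SI against CI.

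Among the 4 soy and tofu diets the *Fmo1* means lay within the SE of each other. T20 differed from T10 by 0.00 ± 0.18 and from SI by 0.00 ± 0.18, although T10 carried 100 g/kg of tofu protein and T20 carried 200 g/kg. The isoflavone mixture went with a difference of -0.01 ± 0.18 on soy protein (SI against S) and 0.07 ± 0.18 on casein (CI against C). Ordered by mean log2 intensity the diets ran S at 12.68, T20, T10 and SI at 12.67, CI at 10.70 and C at 10.63, and the only step between neighbours larger than the spread of the livers was that between SI and CI. The spread within a diet was unequal, with an SD of 0.32 in T20, 0.41 in T10, 0.22 in SI, 0.18 in S, 0.41 in CI and 0.13 in C.

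T10 replicates 3, 4 and 5 carried a GAPDH 3′ to 5′ signal ratio, a measure of RNA length, of 1.58, 1.51 and 1.32, against 0.97 to 1.25 on the other 27 arrays. Without these livers *Fmo1* differed from C by 1.72 in T10, and T20 exceeded T10 by 0.33. Over the deviations of all 30 livers from their diet means, *Fmo1* followed the GAPDH ratio with r = 0.50 and the corresponding beta-actin ratio with r = 0.07. T10 replicates 3, 4 and 5 had beta-actin ratios of 2.43, 2.37 and 2.35, within the 1.84 to 2.89 of all 30 arrays. The other T10 livers, replicates 1 and 2, had 2.85 and 2.41, so the beta-actin ratio did not set the 3 livers apart. The part of RNA length in the T10 readings was not tested.

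*Fmo5* showed another pattern, with wide scatter within each diet, its highest means on tofu and its lowest on soy protein. In T20 livers it read 2514.6, 1249.0, 937.1, 1303.5 and 6117.6 units. T10 livers gave 2832.3, 771.7, 2101.2, 5210.3 and 6650.2 units. Single livers exceeded others of their own tofu diet by 6.53-fold in T20 and 8.62-fold in T10. In SI livers *Fmo5* read 885.2, 484.6, 223.3, 840.2 and 850.1 units. S livers gave 484.6, 450.5, 1512.2, 610.5 and 561.5 units. Apart from the third S liver, no soy protein liver exceeded 885.2 units. CI livers ranged widely, at 310.7, 1174.7, 1741.3, 1980.6 and 781.7 units of *Fmo5*. C livers read 1337.6, 1711.2, 1071.0, 2985.8 and 755.0 units. The casein-only livers overlapped both the tofu and the soy protein livers.

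Ordered by mean log2 intensity ± SD, *Fmo5* ran T10 at 11.43 ± 1.22, T20 at 10.88 ± 1.09, C at 10.46 ± 0.75, CI at 9.96 ± 1.08, S at 9.34 ± 0.71 and SI at 9.19 ± 0.86. No step between neighbours in this order exceeded the SD of the livers. Without T10 replicates 3, 4 and 5, the arrays of high GAPDH ratio, the T10 mean was 10.53, below that of T20, and T20 exceeded T10 by 0.35, against -0.55 with all arrays. T10 then differed from C by 0.07 and from SI by 1.34. The difference from C was 0.42 ± 0.57 in T20, 0.97 ± 0.57 in T10 and -1.12 ± 0.57 in S, and that of SI from CI was -0.77 ± 0.57. The diets at opposite ends stood further apart, T20 exceeding SI by 1.68 ± 0.57 (3.21-fold), with the isoflavone content matched, and T10 exceeding SI by 2.24 ± 0.57. Every T20 liver lay above every SI liver, by a margin that was narrow at its closest (937.1 units in T20 against 885.2 units in SI). Such a separation was seen in 2.03% of all tested probe sets. The SD of *Fmo5* within diets, 0.97 on the log2 scale, was larger than that of 99.3% of the tested probe sets, whereas that of *Fmo1*, 0.30, was larger than that of 77.5%.

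**Figure D2:**
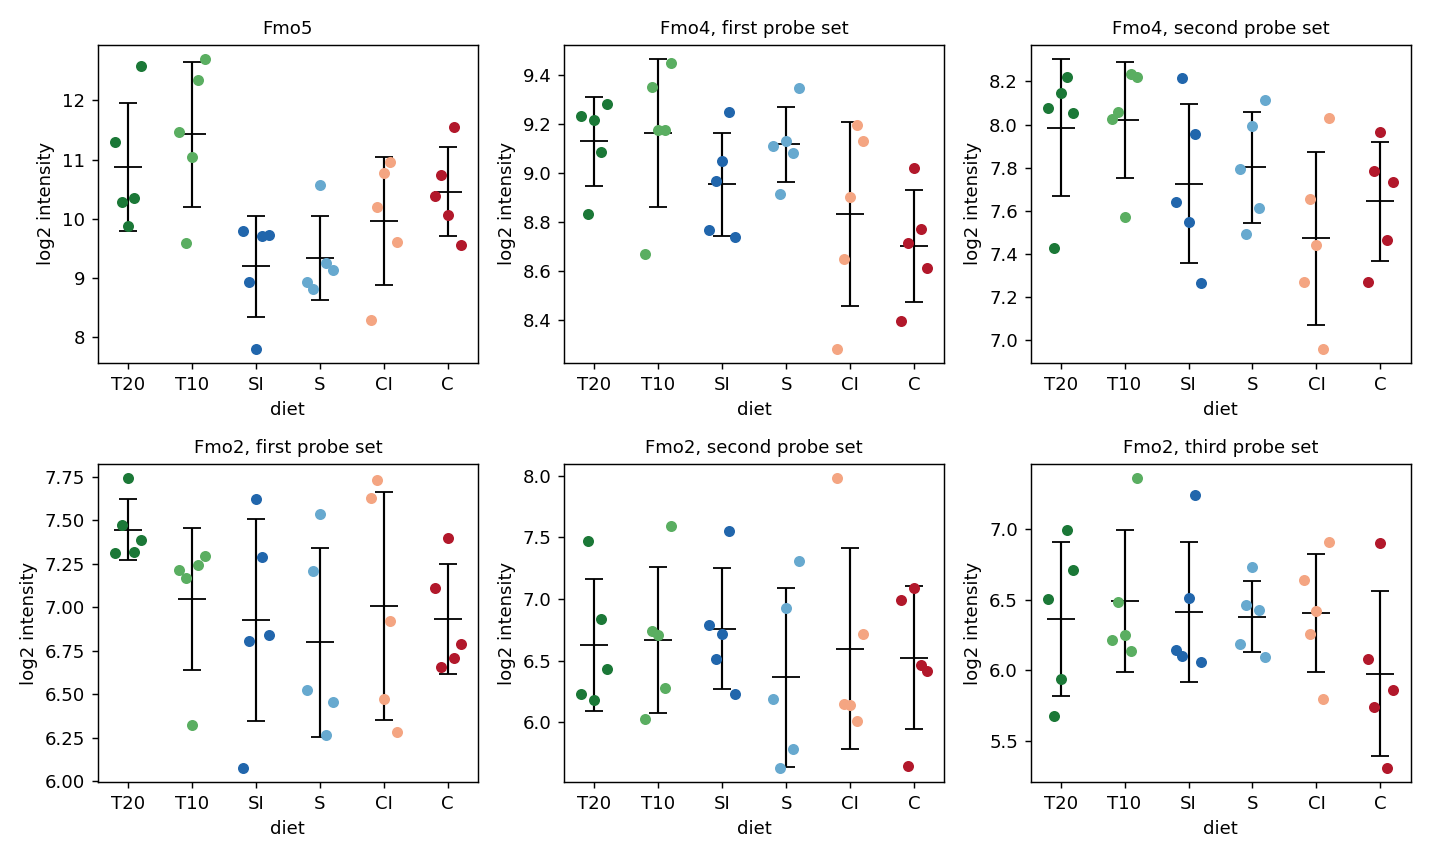
Log2 intensity (vertical axes) of *Fmo5*, both *Fmo4* and the 3 *Fmo2* probe sets in each liver, by diet (horizontal axes); points are livers, bars are diet means and whiskers 1 SD. *Fmo5* scatters by up to 8.62-fold within a diet, *Fmo4* by at most 2.10-fold, and the *Fmo2* readings of the diets overlap, except those of T20 and T10 on the first probe set. Levels of different probe sets are not comparable with each other.

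*Fmo4*, the neighbour of *Fmo1* on chromosome 13, differed much less. Its first probe set read 600.7, 456.0, 594.9, 543.5 and 622.8 units in T20 livers and 406.9, 652.9, 578.1, 578.1 and 698.1 units in T10 livers. In SI livers this probe set read 435.8, 500.4, 529.8, 608.1 and 427.5 units, and in S livers 552.9, 482.2, 561.1, 541.5 and 650.1 units. CI livers gave 312.0, 401.8, 479.0, 586.6 and 560.6 units, and C livers 337.3, 420.8, 518.8, 437.1 and 391.3 units. Of the 5 livers of a diet, 4 in T20, 4 in T10 and 4 in S exceeded the highest C liver, so each of these diets overlapped C in 1 liver. The differences from C were 0.43 ± 0.15 in T20, 0.46 ± 0.15 in T10 and 0.41 ± 0.15 in S. SI exceeded CI by 0.12 ± 0.15 only, with 1 SI liver above the highest CI liver.

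The second *Fmo4* probe set lay nearer the filter level, between 124.7 and 301.2 units over all livers. It differed from C by 0.34 ± 0.20 in T20, 0.38 ± 0.20 in T10 and 0.16 ± 0.20 in S, and SI differed from CI by 0.25 ± 0.20. The *Fmo4* probe sets thus gave the same sign in these 4 comparisons, with the S against C and SI against CI sizes in opposite order. For CI against C their signs were opposite, at 0.13 ± 0.15 for the first probe set and -0.17 ± 0.20 for the second. By mean log2 intensity of the first probe set the order was T10 at 9.16, T20 at 9.13, S at 9.12, SI at 8.95, CI at 8.83 and C at 8.70, and no neighbouring pair differed beyond its spread.

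**Figure D3:**
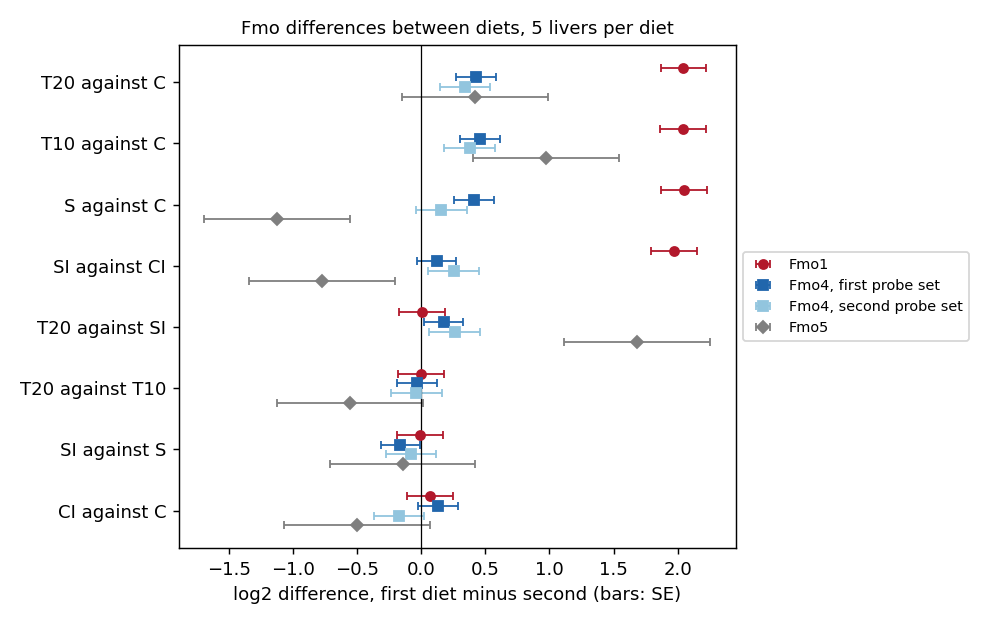
Log2 difference, first diet minus second (horizontal axis), with SE, for *Fmo1*, *Fmo4* and *Fmo5* in 8 comparisons (vertical axis) of 5 livers per diet. *Fmo1* lies near 2 in the 4 comparisons of a soy or tofu diet with casein and near 0 in the other 4; *Fmo5* lies at 1.68 for T20 against SI and below 0 for S against C and SI against CI.

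*Fmo2* was dim. All 3 of its probe sets had a mean below the filter level of 167.6 units, so they entered no fit, and over all livers they read between 39.7 and 252.3 units. The first read 159.2 to 214.1 units in T20 livers (median 167.4), 80.1 to 157.1 in T10 livers (median 148.6), 67.5 to 196.8 in SI livers (median 114.4), 77.0 to 185.7 in S livers (median 92.1), 77.9 to 212.9 in CI livers (median 121.3) and 100.8 to 168.9 in C livers (median 110.5). The T20 livers were the least scattered and overlapped every other diet except T10, whose highest liver read 157.1 units. The second probe set and the third of *Fmo2* did not show this, with T20 medians of 86.6 and 90.6 units against C medians of 88.6 and 58.0 units. Summed intensities of 6 lung markers were alike in all diets, 780.2 to 1437.7 units.

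Within diets the members were loosely tied. Over the deviations of 30 livers from their diet means, which share arrays and their scaling, *Fmo1* correlated with the first *Fmo4* probe set at r = 0.55 and with the second at r = 0.13. The correlation of *Fmo1* with *Fmo5* was r = 0.43, and the *Fmo4* probe sets correlated with each other at r = 0.42. Without the 2 livers farthest in the first measure these 4 values were 0.49, 0.10, 0.44 and 0.46. *Fmo4*, which lies next to *Fmo1* on chromosome 13, differed from C by at most 0.46 in T20, T10 and S, against 2.04 to 2.05 for *Fmo1*.

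The genes most like *Fmo1* were ranked by Pearson r over 30 livers among 10698 other genes. Highest were *Pcp4l1* (r = 0.88), *Slc13a3*, a dicarboxylate transporter (0.86), *Ypel3* (0.85), *Car3*, a carbonic anhydrase (0.84), *Nr1i3*, the nuclear receptor CAR (0.84), *Slc1a2* (0.82), *Ang*, a secreted ribonuclease (0.82) and LOC102554026 (0.81). Lowest were *Pnpla3* (-0.93), the kinase gene *Mapkapk5* (-0.91), *Secisbp2l* (-0.91), *Ddhd1*, a phospholipase (-0.87) and *Irs3*, an insulin receptor substrate (-0.87). These values mostly restate the step between casein-only and other diets. Among the 20 soy and tofu livers *Car3*, *Slc1a2* and LOC102554026 had r of -0.15, 0.05 and 0.02 with *Fmo1*. There *Nr1i3* kept 0.72, *Pcp4l1* 0.62 and *Mapkapk5* -0.68. Among the 10 casein-only livers *Nr1i3* had 0.27, *Pcp4l1* 0.22 and *Mapkapk5* -0.64.

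With the diet means removed, another set of genes came first. *Nr1d2* (r = 0.82) and *Nr1d1* (0.80), which encode the REV-ERB nuclear receptors of the circadian clock, *Retreg1*, a receptor for autophagy of the endoplasmic reticulum (0.82), the repressor gene *Zbtb20* (0.81) and the adhesion receptor gene *Adgrf5* (0.81) followed the deviations of *Fmo1* most closely. In T20 livers *Nr1d1* read 245.0, 145.2, 380.2, 1450.4 and 3122.8 units, the highest being from the liver with 7778.8 units of *Fmo1*, below the T20 liver with 8275.3 units. In C livers *Nr1d1* read 60.8, 101.3, 320.9, 494.1 and 582.8 units, the highest from the C liver with the highest *Fmo1*, 1817.4 units. *Nr1d1* thus differed widely between livers of 1 diet while *Fmo1* differed by at most 2.09-fold within a diet. These deviations moved with the replicate number in the labels. *Nr1d1* lay below its diet mean in 6 of 6 livers numbered 1 and 6 of 6 numbered 2, and above it in 5 of 6 numbered 4 and 6 of 6 numbered 5. *Fmo1* lay below its diet mean in 5 of 6 livers numbered 1 and 5 of 6 numbered 2, and above it in 5 of 6 numbered 4 and 5 of 6 numbered 5. With the means of the numbers removed as well, the 5 correlations were 0.72 for *Nr1d2*, 0.69 for *Retreg1*, 0.73 for *Zbtb20*, 0.65 for *Adgrf5* and 0.68 for *Nr1d1*. *Nr1i3*, which is not among these 5, went from 0.57 with the diet means removed to 0.32. What the number stands for is not in the labels, and the part of the number was not tested. Without the 2 livers farthest from the *Fmo1* median the 5 values were 0.75 to 0.81, and without T10 replicates 3, 4 and 5 they were 0.76 to 0.82. None of the sources used here gives the time of day at which livers were taken, and its part in the spread was not tested.

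**Figure D4:**
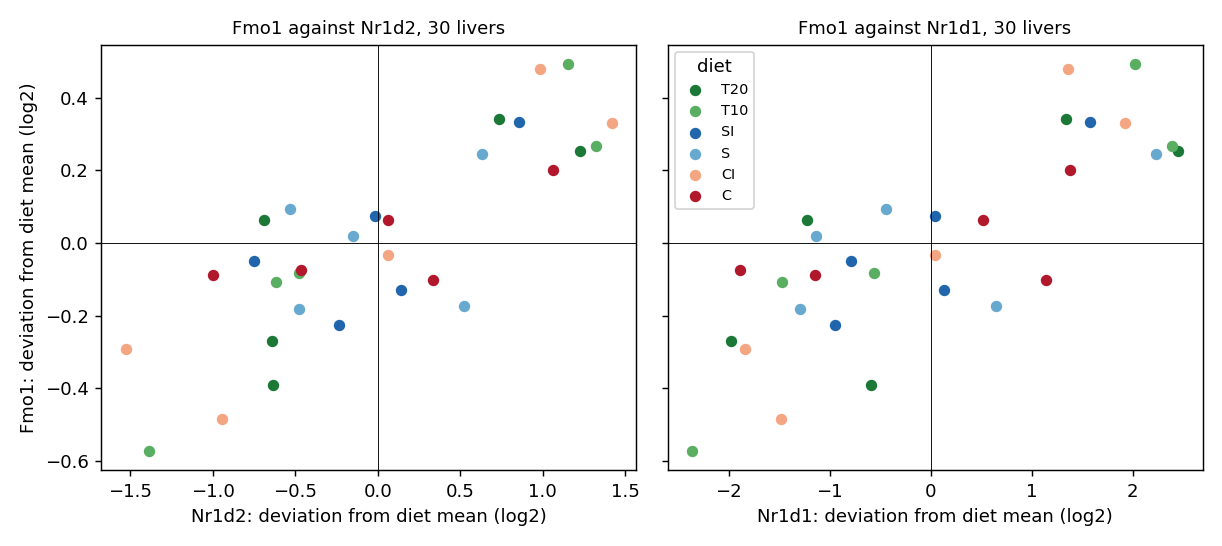
Deviation of *Fmo1* from its diet mean (vertical axis, log2) against that of *Nr1d2* (left) and *Nr1d1* (right) in 30 livers, coloured by diet; r is 0.82 and 0.80. The points of all 6 diets run between lower left and upper right.

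For the other members the closest genes over 30 livers were *Slc16a10*, an aromatic amino acid transporter (r = 0.84), *Cyp27a1*, the sterol 27-hydroxylase (0.78) and *Mfsd4b2l1* (0.78) for *Fmo5*. For the first *Fmo4* probe set they were *Pald1* (0.81), *Retreg1* (0.78) and *Il6r*, the interleukin-6 receptor (0.76). With *Fmo1*, *Retreg1* had r = 0.68 over 30 livers, at rank 77. Its value of 0.82 given above is for deviations from the diet means, where its r with the first *Fmo4* probe set was 0.69. The first *Fmo2* probe set gave lower values, *Plekho1* (0.65), *Smn1* (0.63) and *Gch1* (0.62).

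Genes that supply or surround flavin monooxygenases were read from 7 lists, for NADPH supply, flavin cofactor supply, taurine, choline and betaine, other oxidation enzymes, dioxin receptor targets and regulators, with 76 measured genes tested by limma and adjusted over all probe sets. Each gene was read at its tested probe set of highest mean, while the share given beside the lists is over all tested probe sets. The shares are thus not on a like basis, and no set test was run. This holds for the marker counts below as well. For T20 against C, 4 genes rose and 5 fell (11.8% of the 76, against 4.50% of all tested probe sets). For T10 against C, 1 rose and 2 fell (3.95% against 0.322%). For S against C, 4 rose and 7 fell (14.5% against 7.25%), and for SI against CI, 7 rose and 6 fell (17.1% against 11.6%). T20 differed from SI in 3 genes upward and 3 downward (7.89% against 3.51%). With arrays set to equal median and spread the T20 against C split was 11 up and 2 down, that of S against C 4 and 2, that of T20 against SI 5 and 1 and that of T10 against C 1 and 1. With arrays centred on their medians the SI against CI split was 13 and 2, that of T20 against SI 2 and 4 and that of T10 against C 1 and 1, and with quantile normalization that of T20 against SI was 5 and 3. No gene of the lists passed for CI against C, SI against S or T20 against T10, where 0% of all probe sets passed by limma; at an unadjusted p under 0.05, 1605, 664 and 1318 probe sets did.

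Of the genes for enzymes that make NADPH, the electron donor of flavin monooxygenases, *Me1* fell in all 4 comparisons in which *Fmo1* was high. *Me1*, the cytosolic malic enzyme, fell by 1.76 ± 0.19 with T20 (limma, adjusted p = 3.09e-06), by 1.05 ± 0.19 with T10 (adjusted p = 0.0062), by 1.85 ± 0.19 with S (adjusted p = 2.5e-07) and by 1.85 ± 0.19 with SI against CI (adjusted p = 3.68e-07). *Pgd*, of the pentose phosphate pathway, fell by 0.76 ± 0.12 with T20 (adjusted p = 0.000733). In the NADPH list 5 of 13 genes fell with T20 and none rose, but with arrays set to equal median and spread 2 fell and 1 rose. With S and with SI 1 fell, and *Idh2*, the mitochondrial isocitrate dehydrogenase, rose (by 0.47 ± 0.10 with S, adjusted p = 0.00311, and by 0.63 ± 0.10 with SI, adjusted p = 0.000142). None of the 4 flavin cofactor genes passed in any comparison. *Por*, the electron donor of the cytochromes P450 that share substrates with these enzymes, had a T20 against C difference of 0.33 ± 0.36 and did not pass (adjusted p = 0.648).

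Of 7 tested taurine genes, 1 rose with T20, none passed with T10, 2 rose and 1 fell with S, and 2 rose and 1 fell with SI against CI. *Csad*, which makes hypotaurine, rose by 0.66 ± 0.16 with S (limma, adjusted p = 0.00774) and by 0.78 ± 0.16 with SI against CI (adjusted p = 0.00173). The taurine transporter gene *Slc6a6* rose by 1.63 ± 0.34 with SI against CI (adjusted p = 0.00266). *Baat*, which joins bile acids to taurine or glycine, fell by 0.40 ± 0.10 with S (adjusted p = 0.00915) but not with equal median and spread (adjusted p = 0.252), and was 0.52 ± 0.10 higher in T20 than in SI (adjusted p = 0.00374). That last call was lost with only the T20 and SI arrays (adjusted p = 0.0687). Of 11 choline and betaine genes, none passed with T20 or T10 against C, 3 fell with S and 2 with SI against CI, and 1 was higher in T20 than in SI. Of the 3 falls with S, that of *Chka*, choline kinase, was lost without any 1 of the 10 arrays (adjusted p 0.0541 to 0.126 by limma). The choline transporter gene *Slc44a1* fell by 0.56 ± 0.10 with S (adjusted p = 0.000515) and by 0.62 ± 0.10 with SI against CI (adjusted p = 0.000174).

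*Nr1i3*, already named for its likeness to *Fmo1*, rose by 1.41 ± 0.33 with T20 (limma, adjusted p = 0.0139) and by 1.50 ± 0.33 with S (adjusted p = 0.00441). Its T10 difference of 1.30 ± 0.33 did not pass (adjusted p = 0.0998). For SI against CI *Nr1i3* rose by 1.06 (limma, adjusted p = 0.0357), a call kept in 3 of the 10 fits with 1 array left out. That call was lost without a filter (adjusted p = 0.0501) and with only the SI and CI arrays (adjusted p = 0.0632). *Cyp1a2*, a dioxin receptor target that also marks pericentral hepatocytes, rose by 0.76 ± 0.16 with T20 (adjusted p = 0.00737) and by 0.89 ± 0.16 with T10 (adjusted p = 0.00821). Its call was lost for T20 with only the T20 and C arrays (adjusted p = 0.0645) and for T10 without T10 replicates 3, 4 and 5 (adjusted p = 0.263). For SI against CI *Cyp1a2* rose by 0.52 (limma, adjusted p = 0.0376), a call kept in 3 of the 10 fits with 1 array left out. Of 4 tested dioxin receptor targets, 1 rose with T20, 1 with T10, none with S and 1 with SI against CI, and none fell. Of 8 tested pericentral markers, 3 rose with T20, 2 with T10, 2 with S and 5 with SI against CI, and 0, 0, 1 and 1 fell. Over all tested probe sets 4.50%, 0.322%, 7.25% and 11.6% were called in these comparisons. The pericentral list includes *Slc1a2*, named above for its separation of the diets. Of 8 tested periportal markers, none was called with T20 or T10, 2 fell with S, and 2 rose and 1 fell with SI against CI. The summed intensity of 9 pericentral markers ran between 70290.0 and 110809 units in T20, 84030.2 and 93603.7 in T10, 57219.6 and 78210.3 in SI, 50200.2 and 77685.9 in S, 53098.9 and 58150.1 in CI and 50711.0 and 65371.7 units in C, none of the markers being at 0 in all livers. Sums of 11 kidney tubule markers, from an organ that expresses *Fmo1*, had medians of 12070.8 units in T20, 11792.0 in T10, 12442.4 in SI, 13040.0 in S, 10709.7 in CI and 10970.6 in C. All SI livers (11743.3 to 14756.8 units) lay above all CI livers (9064.1 to 11707.5 units) in this sum, while the T20 livers (10139.1 to 12903.1 units) and the S livers (9619.1 to 14250.7 units) overlapped the C livers (8581.9 to 11605.0 units), as did the T10 livers (10717.0 to 12397.7 units). Of single tested probe sets, 4.70% lay wholly above for SI against CI. Only 5 of the 11 kidney markers passed the filter. Of these 5, 1 fell with T20, none was called with T10 or S, and 1 rose with SI against CI. The part of the pericentral and kidney markers in the *Fmo1* difference was not tested.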

How the data were processed

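Liver RNA of 30 rats was measured with 1 array per animal. The authors deposited linear intensities that the SuperNORM service had normalized, per the labels; no source used here gives the reference level of that scale, and C replicate 3 and CI replicate 3 carry identical parameters. Values below 16 were set to 16 before taking log2. Probe sets with a mean log2 above the 40th percentile (7.39, intensity 167.6) were tested, 18625 in all for 10699 genes. Symbols came from the platform annotation (20832 probe sets with 1 symbol, 436 with several, 9774 with none; 20764 matched current records). The diet means were estimated by limma 3.58.1 (R 4.3.3) with a variance trend, 24 residual degrees of freedom and Benjamini-Hochberg adjustment at 0.05 over all tested probe sets; the fit gave the SE of the members. On simulated data for T20 against C (18625 probe sets) the fit recovered 64.2% of 1.5-fold, 95.5% of 2-fold and 98.5% of 4-fold changes. For a gene with several tested probe sets, that of highest mean was used. Members and lists were chosen with earlier results of these data known. Named genes were all members, the 8 highest and 5 lowest by r to *Fmo1* and the 5 highest by within-diet r. The 3 highest for each other member, *Me1*, *Por* and up to 4 called genes per list were added. Called genes whose call depended on 1 array were counted and, after their values were seen, left unnamed. The exceptions were *Chka* for S against C, and *Cyp1a2* and *Nr1i3* for SI against CI. Some genes that kept their call without any 1 array were also only counted above. Among them were *Bhmt2* for S against C (-0.43) and, for T20 against SI, *Cyp2d4* (0.70), *Tkt* (-0.71) and *Taldo1* (-0.40). Alternatives covered scaling, filter, floor, replicate block, compared groups and arrays left out. Figures used matplotlib 3.10.9 under Python 3.11.15.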

Additional observations from a re-analysis of the deposited data

Results flagged for a closer look

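Of 42 groups of 5 livers examined (7 probe sets in 6 diets), 4 had a liver whose gap to its nearest neighbour took up more of the range than Dixon's limit for 5 samples, where chance gives about 1 in 20. *Fmo5* in the third S liver stood apart on the high side, at 1512.2 units with a gap of 0.749 of the range. The second *Fmo4* probe set was low in T20 replicate 2, at 172.4 units, with 0.788 of the range. For *Fmo2*, T10 replicate 3 was low at 80.1 units (on the first probe set, 0.868 of the range) and T10 replicate 5 was high at 164.1 units (on the third probe set, 0.718 of the range). No *Fmo1* liver was set apart in this way.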

How the results depend on the processing

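*Fmo1* kept its sign for T20, T10 and S against C and for SI against CI under all alternatives, with T20 against C between 1.96 and 2.22. Its differences near 0 (CI against C, SI against S, T20 against SI, T20 against T10) changed sign in 2, 7, 8 and 8 settings. Without T10 replicates 3, 4 and 5, *Fmo1* gave 1.72 for T10 against C and 0.33 for T20 against T10; *Fmo5* gave 0.07 for T10 against C and 0.35 for T20 against T10, which turned its sign. *Fmo5* for T20 against C ran between -0.01 and 0.69. Of the 8 genes most like *Fmo1*, 7 stayed among the 8 with the mean of a gene's probe sets, 3 with Spearman correlation and 0 with deviations from diet means. Probe sets called were 839 for T20 against C (383 without C and CI replicates 3, 213 with only the compared groups), 60 for T10 against C (27 without C and CI replicates 3, 39 with equal median and spread, 34 with only the compared groups, 11 without T10 replicates 3, 4 and 5), 653 for T20 against SI (39 with only the compared groups), 0 for T20 against T10 (1 with only the compared groups) and 0 for CI against C (1 without a filter). List genes called were 9 for T20 against C (4 with only the compared groups), 3 for T10 against C (1 without T10 replicates 3, 4 and 5), 11 for S against C (6 with equal median and spread) and 6 for T20 against SI (1 with only the compared groups); the cause was not tested, though fewer samples enter all of these except the scaling and filter settings. With 1 array left out, probe sets called ran 389 to 1029 (T20 against C; moved by over 1.5 times without C replicates 3 or 5 or T20 replicates 1 or 2), 27 to 69 (T10 against C; C replicates 1 or 3, T10 replicates 2, 4 or 5), 898 to 1302 (S against C; S replicate 2), 1353 to 2217 (SI against CI; CI replicates 4 or 5, SI replicates 2 or 5), 0 to 3 (CI against C; C replicates 1 or 5), 228 to 1026 (T20 against SI; SI replicates 2, 3, 4 or 5, T20 replicates 1 or 2) and 0 to 1 (T20 against T10; T10 replicate 2 or T20 replicate 5). List genes ran 4 to 10 (T20 against C; without T20 replicate 1), 7 to 12 (S against C; without C replicate 3) and 6 to 13 (SI against CI; CI replicate 4, SI replicates 2, 4 or 5). With a replicate block more probe sets were called, 1120 for T20 against C, 76 for T10 against C and 970 for T20 against SI. The S against C count went from 1351 to 1693 and that of SI against CI from 2168 to 2541. No count moved by over 1.5 times. Same-numbered livers of different diets correlated at -0.28 to 0.35 (22 of 75 pairs over 0.1), with a median of 0.05 against -0.01 for livers of different numbers. Of 30 livers, 9 correlated best with their own number. Numbers were therefore not taken as pairs over all probe sets, although *Fmo1* and the clock receptors moved with the number. Dim *Fmo2* probe sets allow no statement on small differences.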

Other observations

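Other clock genes were set beside the members after the *Nr1d1* and *Nr1d2* values had been seen. Over the deviations of 30 livers from their diet means, *Fmo1* correlated with *Cry1*, a clock repressor, at r = -0.69, with *Tef* at 0.51 and *Dbp* at 0.49, both clock output factors, and with *Bmal1*, the clock activator, at -0.41. *Hlf*, an output factor of the same family as *Tef* and *Dbp*, had r = -0.43, opposite in sign to both. The remaining clock genes gave -0.31 (*Nfil3*), -0.27 (*Per2*), 0.18 (*Cry2*), 0.08 (*Clock*), 0.08 (*Npas2*) and 0.06 (*Per1*). Over the 13 clock genes *Fmo5* ran between -0.55 (*Bmal1*) and 0.58 (*Tef*), and the first *Fmo4* probe set between -0.64 (*Cry1*) and 0.67 (*Nr1d2*). *Nr1d1* itself ran between 60.8 and 3122.8 units over the 30 livers, *Dbp* between 92.4 and 4269.5 and *Bmal1* between 212.7 and 1126.2. These points share arrays and depth of signal, carry no test, and the time of tissue collection was not analysed here.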
